A study of Bos taurus with 6 samples.

Results

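The lysosome genes described here were the genes of the authors' expression table whose KEGG annotation held the lysosome entry and did not hold the entry for antigen processing and presentation. There were 105 of them among the 17663 genes of the table. The lysosome entry held 110 genes, and the 5 that also carried the antigen processing entry (CTSB, CTSL, CTSS, CTSV and LGMN) were left out by the rule. By the known role of their products the 105 genes fell into 39 hydrolases (10 proteases, 14 glycosidases, 6 sulfatases and 9 other hydrolases), 5 activators and other lumenal proteins, 22 membrane proteins, 9 subunits of the proton pump and 29 proteins of the delivery route, and 1 gene was given no role.

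Lysosomes are acidic organelles in which soluble hydrolases take apart proteins, glycans, lipids and nucleic acids. The V-ATPase, a pump with a membrane-bound V0 sector and a cytosolic V1 sector, brings protons into the lumen, and membrane proteins line the organelle and carry the products out. New hydrolases are marked with mannose 6-phosphate in the Golgi and travel with receptors in vesicles shaped by clathrin and by GGA and AP adaptors, and connective tissue cells use this route to degrade collagen and proteoglycans that they take up.

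The study asked how an exogenous fat-1 transgene alters bovine fetal fibroblasts (bEFs), which were primary cultures from fetuses of 50–60 days. FT cells carried fat-1, a Caenorhabditis elegans gene for a desaturase that turns n-6 into n-3 polyunsaturated fatty acids, and WT cells were wild-type cells of Luxi cattle. There were 3 FT and 3 WT fetuses with 1 poly(A) library from each. The promoter of the transgene and the breed of the FT fetuses are not given in the sources used here, so the transgene cannot be told apart from other differences between the fetuses or their cultures.

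For every library the table gave raw counts and FPKM, which divides fragments by gene length and library size. The libraries held 63366834, 48167642 and 54204446 counts in FT_1, FT_2 and FT_3 and 69777641, 51310741 and 54271927 counts in WT_1, WT_2 and WT_3. The lysosome genes took 1.10%, 1.93% and 1.93% of the counts in FT_1, FT_2 and FT_3, and 1.89%, 1.74% and 1.86% in WT_1, WT_2 and WT_3. Levels are given as FPKM, and differences as the log2 fold change of FT over WT from edgeR's quasi-likelihood test on the counts. A gene passed at a Benjamini-Hochberg adjusted p under 0.05 over the 13482 genes tested. An exact permutation test of a single gene over 3 libraries against 3 cannot give a p below 0.10.

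FT_1 stood apart from the other FT libraries. Of the genes compared, 21.8% differed by more than 2-fold between FT_1 and FT_2 and 22.2% between FT_1 and FT_3, against 1.57% between FT_2 and FT_3 and 1.97–2.25% between pairs of WT libraries. The lowest mean chi-square per gene for a pair within a group was 12.3 (FT_2 and FT_3, median 2.92), above sampling noise. Such a value cannot show by itself that libraries came from separate fetuses. All 6 libraries were counted separately because the paper names separate fetuses. Counts, and genes whose call rests on FT_1, are given with and without it. Fits without FT_1 compare only FT_2 and FT_3, the pair with the fewest such differences, with the WT libraries. Their small p values therefore rest on fewer fetuses and on a closely matched pair. Of the 98 lysosome genes tested, 34 had an FPKM in FT_1 below 2/3 of the mean of FT_2 and FT_3 (34.7%, against 18.0% of all genes tested), and 4 were more than 1.5 times above that mean (4.08%, against 18.7%).

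Fibroblast markers were high in all 6 libraries, as the labels name these cells. All 10 markers of the list were in the table, and their FPKM summed to 6828, 17047 and 16783 in FT_1, FT_2 and FT_3 and to 17821, 17272 and 17359.8 in WT_1, WT_2 and WT_3. VIM, the most abundant by its mean, stood at 1244, 3850.2 and 4171 in FT_1, FT_2 and FT_3 and 7891, 8178 and 7312 in WT_1, WT_2 and WT_3. The sum of the list was lowest in FT_1, as was each of its genes apart from PDGFRA and THY1, which were highest there. PDGFRA stood at 218, 166 and 141 in FT_1, FT_2 and FT_3 and 93.5, 87.0 and 99.7 in WT_1, WT_2 and WT_3. THY1 stood at 413, 358 and 342 in the FT libraries and 367, 330 and 368.5 in the WT libraries. With 6 libraries 1 gene of the list, PDGFRA, was higher in FT cells. Without FT_1, 5 of the markers were higher and 1, VIM, was lower (log2 fold change -0.79, edgeR adjusted p = 1.06e-05, against 0.0902 with 6 libraries). The part of this list in the results was not tested.

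Epithelial markers set FT_1 apart from the other libraries. The 8 markers of that list together reached 448, 12.8 and 11.9 FPKM in FT_1, FT_2 and FT_3, and 10.1, 7.96 and 13.9 in WT_1, WT_2 and WT_3. The most abundant was the keratin gene KRT5, at 172, 2.57 and 1.63 in the FT libraries and at 0 in each WT library, whereas EPCAM was at 0.57 in FT_1 and at 0 elsewhere. None of the 8 passed with 6 libraries in edgeR, KRT5, KRT8, KRT14 and KRT18 were higher with the replicate block added, and 4 were higher without FT_1. Their part in the low lysosome values of FT_1 was not tested. In bulk RNA, fewer cells of a type and less RNA per cell cannot be told apart.

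Macrophages are rich in lysosomes, and their markers were low. Of 12 macrophage markers 8 were in the table, 5 of them (AIF1, CSF1R, ITGAM, MRC1 and SPI1) stayed under an FPKM of 0.2 in every library, and the 8 summed to 6.03, 5.59 and 4.49 in FT_1, FT_2 and FT_3 and to 9.83, 8.26 and 9.38 in WT_1, WT_2 and WT_3. The most abundant, CD14, stood at 3.29, 3.05 and 2.01 in FT_1, FT_2 and FT_3 and 4.72, 3.78 and 5.09 in WT_1, WT_2 and WT_3, and CD163 was at 0.18, 0 and 0.03 in the FT libraries and 3.14, 2.90 and 2.69 in the WT libraries. CD163 was lower and FCER1G was higher in FT cells, and without FT_1 CD14 was also lower (edgeR adjusted p = 0.0115, against 0.1002 with 6 libraries). The part of these small levels in the lysosome results was not tested. The osteoclast list had 3 of 6 markers in the table, with sums of 54.2, 7.99 and 8.79 in FT_1, FT_2 and FT_3 and 9.60, 8.87 and 8.61 in the WT libraries. Its high value in FT_1 came from the collagenase gene MMP9, at 46.6, 0 and 0 in FT_1, FT_2 and FT_3 and 0.38, 0.31 and 0.06 in WT_1, WT_2 and WT_3. No osteoclast marker passed with 6 libraries in edgeR, and 1 was lower without FT_1.

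Markers of other tissues were also low. Endothelial markers (7 of 7 in the table, with KDR at 0 in every FT library) summed to 7.06, 0.86 and 1.04 in FT_1, FT_2 and FT_3 and to 2.97, 1.99 and 2.06 in WT_1, WT_2 and WT_3, ERG being the most abundant, and none passed with 6 libraries in edgeR, while 2 were lower without FT_1. Skeletal muscle markers (5 of 7) summed to 5.81, 4.61 and 3.78 in the FT libraries and 1.53, 1.59 and 2.31 in the WT libraries, with DES the most abundant and higher in FT cells and with MYH3 and TNNT2 lower, while without FT_1 1 was higher and 3 were lower. Neural and glial markers (3 of 6) summed to 14.9, 7.06 and 5.83 in the FT libraries and 11.9, 13.2 and 13.1 in the WT libraries, with S100B the most abundant and TUBB3 lower in FT cells, while without FT_1 2 were lower. The marker counts of all lists stand beside 20.1% of all genes higher and 18.9% lower with 6 libraries, or 30.6% and 31.5% without FT_1. The part of these markers in the results was not tested.

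In FT cells, part of the lysosomal hydrolases were more abundant than in WT cells, while the clathrin genes CLTC and CLTA and the lipid transfer gene NPC2 were less abundant, and adaptor genes passed in both directions. Of the 98 lysosome genes tested, 21 were higher in FT cells (21.4%, where 20.1% of all 13482 genes were higher) and 16 were lower (16.3%, where 18.9% of all genes were lower). These shares of the whole list were near those of all genes, and the median log2 fold change was 0.04 for the list and 0.03 for all genes. At the study's own threshold (fold change past 2 in either direction, p under 0.05 before adjustment), 11 lysosome genes were higher (10.2% of all genes tested were) and 6 were lower (8.96% of all genes tested were). The FPKM values of the groups did not overlap in 61 lysosome genes (58.7% of all genes tested), with FT above WT in 21 (21.8% of all genes tested) and FT below WT in 40 (36.9% of all genes tested).

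Among 38 hydrolases tested, 14 were higher in FT cells (36.8%) and 2 were lower (5.26%), with a median log2 fold change of 0.35. Among the 60 other lysosome genes tested, 7 were higher (11.7%) and 14 were lower (23.3%), with a median of -0.19. Without FT_1, 25 hydrolases were higher and 5 were lower, with a median of 0.45, and of the other lysosome genes 20 were higher and 27 were lower, with a median of -0.11. Of all genes 30.6% were higher and 31.5% lower without FT_1, and these shares and those with 6 libraries (20.1% and 18.9%) are also the ones beside which the counts of the single roles stand. The difference between these groups was not tested.

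The counts depended on single libraries and on scaling. Without FT_1, 45 lysosome genes were higher (30.6% of 13765 genes tested were) and 32 were lower (31.5% of those genes were, and 62.1% passed in either direction), with a median of 0.16 against -0.02 for all genes. The number lower was 9 without FT_2 (14.2% of all genes tested in that fit), 8 without WT_1 (11.1% of all), 8 without WT_2 (11.3% of all) and 9 without WT_3 (12.6% of all), and at the study's threshold it was 3 without WT_1 (7.64% of all). Without FT_3 it was 11 (14.4% of all). The number higher was 21 without FT_2 (15.3% of all), 19 without FT_3 (15.6% of all), 17 without WT_1 (11.0% of all), 16 without WT_2 (11.6% of all) and 19 without WT_3 (13.0% of all). Without rescaling between libraries, 20 were higher (15.2% of all genes) and 26 were lower (25.2% of all genes, with 40.4% passing in either direction), 8 were higher at the study's threshold (8.06% of all genes) and 8 lower (11.6% of all genes), and the median over all genes moved from 0.03 to -0.12. Hydrolases were then higher in 13 genes and lower in 3. With limma on FPKM, 19 were higher (as were 1837 of all 12247 genes tested) and 30 were lower (29.2% of all genes, with 44.2% passing in either direction), and at the study's threshold 6 were higher (3.77% of all genes) and 5 were lower (8.38% of all genes). DESeq2 called 27 higher (24.3% of all genes) and 23 lower (22.7% of all genes), and the replicate block left 20 higher (13.6% of all genes) and 10 lower (12.9% of all genes). With a pseudocount of 0.1 limma called 19 higher (15.4% of all genes) and 31 lower (28.8% of all genes), and without the FPKM filter 19 higher (9.88% of all genes) and 25 lower (20.5% of all genes). Because FPKM values carry no such rescaling, a ratio of FPKM lies below the edgeR fold change by about this shift.

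**Figure D1:**
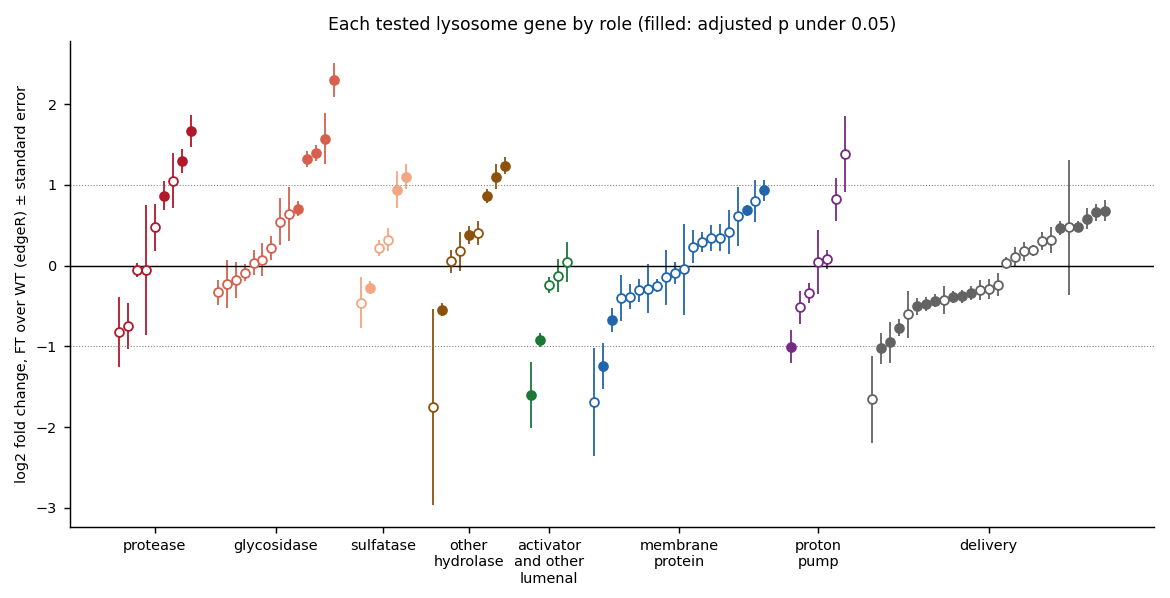
Log2 fold change of FT over WT from edgeR for 97 tested lysosome genes with a role, grouped by role and ordered by size, with the standard error as bars and the groups of 3 libraries behind each point. Filled points passed at an adjusted p under 0.05, and dotted lines mark 1 and -1. The hydrolase roles hold 14 filled points above 0 and 2 below, and the delivery role 5 above and 9 below.

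Of 9 proteases tested, 3 were higher in FT cells (CTSD, CTSF and CTSZ) and none was lower in this edgeR fit, while 6 were higher and 1 was lower without FT_1. CTSD (ENSBTAG00000007622, chromosome 29, 49712700 to 49722179 in the authors' table) encodes cathepsin D, the main aspartic protease of lysosomes, and its FPKM was 348, 538 and 510.04 in FT_1, FT_2 and FT_3 and 164, 154 and 174 in WT_1, WT_2 and WT_3. Every FT library lay above every WT library, and FT_1 was the lowest of the FT libraries. Its level was 465 ± 102 in FT cells and 164 ± 9.99 in WT cells (SD, 3 libraries each), and its log2 fold change was 1.67 (standard error 0.19, edgeR adjusted p = 0.00204), or 1.84 without FT_1. CTSF, a cysteine cathepsin, stood at 70.3, 60.6 and 51.3 in FT_1, FT_2 and FT_3 and 26.8, 24.3 and 31.7 in WT_1, WT_2 and WT_3. All FT values were above the WT values, and here FT_1 was the highest library. The log2 fold change of CTSF was 1.29 (standard error 0.15, edgeR adjusted p = 0.00200). CTSZ, a carboxypeptidase picked out after its values were seen, was at 56.1, 82.2 and 87.3 in the FT libraries and 46.4, 47.1 and 44.9 in the WT libraries. It did not overlap between groups, with a log2 fold change of 0.87 and an edgeR adjusted p of 0.0135, which became 0.0587 without WT_1, 0.0564 without WT_2 and 0.0577 without WT_3.

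Several proteases had FT_1 far from FT_2 and FT_3. CTSK (ENSBTAG00000021035, chromosome 3, 19953196 to 19966177) encodes cathepsin K, a collagen-degrading protease best known from osteoclasts, and was by its mean the most abundant lysosome gene, at 266, 2998 and 3079 in FT_1, FT_2 and FT_3 and 2644, 2225 and 2533 in WT_1, WT_2 and WT_3. FT_1 lay a factor of 11.4 below the mean of FT_2 and FT_3, which were themselves above all WT libraries. CTSK alone took 0.0499%, 0.560% and 0.576% of the counts in FT_1, FT_2 and FT_3, against 0.492%, 0.414% and 0.471% in WT_1, WT_2 and WT_3. For CTSK the log2 fold change was -0.05 (standard error 0.80, edgeR adjusted p = 0.965) with 6 libraries and 0.47 (standard error 0.08, edgeR adjusted p = 5.41e-04) without FT_1.

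Cathepsin A (CTSA), which also protects other lysosomal enzymes from degradation, had 90.6, 212 and 214 in the FT libraries and 92.2, 89.2 and 97.8 in the WT libraries and was picked out after its values were seen. FT_2 and FT_3 were above all WT libraries and FT_1 was among them. The edgeR adjusted p was 0.0519 with 6 libraries (log2 fold change 1.05) and 1.87e-07 without FT_1 (log2 fold change 1.36), and with 6 libraries in DESeq2 it was 0.00509. TPP1, a tripeptidyl peptidase, stood at 31.9, 63.5 and 66.8 in the FT libraries and 45.2, 41.9 and 43.9 in the WT libraries, with FT_1 below and FT_2 and FT_3 above all WT libraries, and passed only without FT_1 (log2 fold change 0.75, edgeR adjusted p = 7.13e-06). Cathepsin H (CTSH), an aminopeptidase, stood at 76.1, 160.1 and 151 in the FT libraries and 254, 239.6 and 236 in the WT libraries. All FT values were below the WT values, yet the edgeR adjusted p was 0.0861 with 6 libraries (log2 fold change -0.75) and 1.39e-04 without FT_1 (log2 fold change -0.47). CTSH also passed with 6 libraries without rescaling (edgeR adjusted p = 0.0448), in DESeq2 (0.0258) and with limma on FPKM (0.0353). CTSO was low throughout, at 0.69, 1.97 and 1.76 in the FT libraries and 3.18, 2.66 and 2.89 in the WT libraries, with an edgeR adjusted p of 0.181.

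Of 14 glycosidases, 5 were higher in FT cells and none was lower with 6 libraries in edgeR, while 10 were higher and 2 were lower without FT_1. GAA (ENSBTAG00000016021, chromosome 19, 52483395 to 52499075), the acid alpha-glucosidase that degrades glycogen, had FPKM values of 22.3, 26.2 and 25.1 in FT_1, FT_2 and FT_3 and 10.7, 9.89 and 10.6 in WT_1, WT_2 and WT_3. The FT values were all above the WT values and close to each other. GAA had a log2 fold change of 1.40 (standard error 0.10, edgeR adjusted p = 6.88e-04), a fold of 2.63. MAN2B1 (ENSBTAG00000006241, chromosome 7, 12838368 to 12854497), the lysosomal alpha-mannosidase, stood at 48.2, 44.8 and 47.8 in FT_1, FT_2 and FT_3 and 21.4, 18.8 and 22.9 in WT_1, WT_2 and WT_3. FT_1 did not stand apart for this gene, and all FT values exceeded all WT values. For MAN2B1 the log2 fold change was 1.32 (standard error 0.10, edgeR adjusted p = 7.99e-04).

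IDUA, NAGLU and AGA were the other genes counted as glycosidases that passed, and were picked out after their values were seen. IDUA (ENSBTAG00000007002, chromosome 6, 117374270 to 117388382), the alpha-L-iduronidase that acts on dermatan and heparan sulfate, stood at 23.9, 37.2 and 37.0 in FT_1, FT_2 and FT_3 and 7.38, 6.72 and 8.18 in WT_1, WT_2 and WT_3. Every FT value was above every WT value, FT_1 being the lowest of the FT libraries. It had the highest fold change of the tested lysosome genes in the edgeR fit of 6 libraries, the log2 fold change being 2.30 (standard error 0.21, edgeR adjusted p = 0.00115), or 2.49 without FT_1. IDUA shared 6986 bases with SLC26A1 on the other strand (mean FPKM 0.15), and reads of the shared bases cannot be told apart if strand was not counted. NAGLU (ENSBTAG00000047956), the alpha-N-acetylglucosaminidase of heparan sulfate degradation, had 23.1, 50.9 and 48.3 in the FT libraries and 16.4, 13.8 and 16.0 in the WT libraries. The groups did not overlap, although FT_1 was nearer to the WT libraries than to FT_2 and FT_3. NAGLU had a log2 fold change of 1.57 with an edgeR adjusted p of 0.0112, 1.86 without FT_1, and the adjusted p was 0.0565 without WT_2. AGA cuts the bond between asparagine and the glycan, not one between sugars, and was counted with the glycosidases by the grouping used here. It was at 20.3, 23.5 and 21.6 in the FT libraries and 15.1, 14.9 and 14.9 in the WT libraries, again without overlap. AGA had a log2 fold change of 0.70 and an edgeR adjusted p of 0.00292.

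The other glycosidases did not pass with 6 libraries. HEXA, which takes part in the degradation of GM2 ganglioside, had an FPKM of 32.4, 45.4 and 43.6 in the FT libraries and 41.0, 38.5 and 36.9 in the WT libraries. The groups overlapped, with FT_1 the lowest library, and the log2 fold change of 0.22 had an edgeR adjusted p of 0.282; without FT_1 they were 0.37 and 0.00119. GLB1, the acid beta-galactosidase, ran the other way, at 117, 56.9 and 55.1 in the FT libraries and 99.0, 96.0 and 103 in the WT libraries. FT_1 was the highest library and FT_2 and FT_3 the lowest. For GLB1 the log2 fold change was -0.23 (edgeR adjusted p = 0.572) with 6 libraries and -0.66 (edgeR adjusted p = 1.59e-05) without FT_1. GALC, the galactosylceramidase, was low, at 3.66, 2.74 and 2.74 in the FT libraries and 4.19, 4.18 and 4.48 in the WT libraries, with a log2 fold change of -0.33 and an edgeR adjusted p of 0.128, or 0.00493 without FT_1. GUSB, the beta-glucuronidase, stood at 45.03, 51.8 and 55.0 in the FT libraries and 58.6, 59.2 and 62.4 in the WT libraries and did not pass (log2 fold change -0.09, edgeR adjusted p = 0.543). NEU1, the sialidase that binds CTSA, was picked out after its values were seen, at 7.63, 17.5 and 18.0 in the FT libraries and 10.3, 9.77 and 11.0 in the WT libraries. FT_1 was below and FT_2 and FT_3 were above all WT libraries, with an edgeR adjusted p of 0.177 with 6 libraries and 1.35e-05 without FT_1.

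Of 6 sulfatases, 2 were higher in FT cells (ARSA and SGSH) and 1 was lower (ARSB), and without FT_1 3 were higher and 1 was lower. ARSA, the arylsulfatase that degrades sulfatide, had FPKM values of 30.2, 20.8 and 21.7 in FT_1, FT_2 and FT_3 and 11.7, 12.8 and 13.2 in WT_1, WT_2 and WT_3. All FT values were above the WT values and FT_1 was the highest. ARSA had a log2 fold change of 1.10 (standard error 0.15, edgeR adjusted p = 0.00346). SGSH, the heparan N-sulfatase, stood at 23.6, 22.6 and 26.6 in the FT libraries and 12.9, 10.6 and 18.9 in the WT libraries. The groups did not overlap, but WT_3 was well above the other WT libraries. For SGSH the log2 fold change was 0.94 with an edgeR adjusted p of 0.0202, which was 0.0618 without FT_3, 0.0835 without WT_1 and 0.0556 without WT_2. ARSB, which removes sulfate from dermatan and chondroitin sulfate, was at 27.9, 25.1 and 23.4 in the FT libraries and 35.2, 35.0 and 33.0 in the WT libraries. Its FT values were all below the WT values with a log2 fold change of -0.27 and an edgeR adjusted p of 0.0429, and the adjusted p was 0.114 without FT_2, 0.126 without FT_3, 0.143 without WT_1, 0.124 without WT_2 and 0.0838 without WT_3. The call of ARSB was also lost without the count filter (edgeR adjusted p = 0.0535) and with the replicate block (0.0900).

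Of 9 other hydrolases, 4 were higher in FT cells (ACP2, DNASE2, PPT2 and SMPD1) and 1 was lower (PPT1), and without FT_1 6 were higher and 1 was lower. The palmitoyl-protein thioesterases PPT1 and PPT2, which remove fatty acids from proteins or acyl thioesters, moved in opposite directions. PPT1 had an FPKM of 36.0, 30.6 and 31.0 in FT_1, FT_2 and FT_3 and 52.7, 54.1 and 52.3 in WT_1, WT_2 and WT_3, and PPT2 had 15.8, 12.9 and 13.1 in the FT libraries and 6.34, 6.62 and 6.85 in the WT libraries. Neither gene overlapped between groups, and FT_1 was the highest FT library in both. The log2 fold change was -0.55 for PPT1 (standard error 0.08, edgeR adjusted p = 0.00427) and 1.24 for PPT2 (standard error 0.11, edgeR adjusted p = 0.00102). DNASE2, the acid endonuclease of lysosomes, stood at 48.6, 46.9 and 43.6 in the FT libraries and 28.9, 26.5 and 30.1 in the WT libraries, the log2 fold change being 0.86 (standard error 0.08, edgeR adjusted p = 0.00124). SMPD1, the acid sphingomyelinase, was picked out after its values were seen, at 30.2, 41.7 and 38.8 in the FT libraries and 18.9, 17.4 and 21.3 in the WT libraries. The FT values were again all above the WT values, with a log2 fold change of 1.10 and an edgeR adjusted p of 0.00361. ACP2, an acid phosphatase, had 5.70, 6.24 and 6.04 in the FT libraries and 5.02, 4.85 and 5.62 in the WT libraries; its log2 fold change of 0.37 had an edgeR adjusted p of 0.0403, and without FT_2, FT_3, WT_1, WT_2 or WT_3 the adjusted p was 0.122, 0.113, 0.143, 0.132 and 0.0592. The call of ACP2 was also lost without rescaling (edgeR adjusted p = 0.146), without the count filter (0.0617), with the replicate block (0.0975) and with limma on FPKM (0.145). ACP2 shared 427 bases with NR1H3 on the other strand, which had a log2 fold change of 0.39 itself, and reads of this pair cannot be told apart if strand was not counted. ASAH1, the acid ceramidase and the most abundant of this role, stood at 78.1, 57.5 and 54.2 in the FT libraries and 70.01, 66.4 and 67.7 in the WT libraries and did not pass (edgeR adjusted p = 0.796). ACP5, the tartrate-resistant phosphatase of osteoclasts and macrophages, was near 0, at 0, 0.22 and 0.45 in the FT libraries and 1.04, 0.58 and 0.89 in the WT libraries, with an edgeR adjusted p of 0.293.

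The summed FPKM of the 38 hydrolases other than CTSK was 1539.8, 2116 and 2074 in FT_1, FT_2 and FT_3 and 1537, 1451 and 1537 in WT_1, WT_2 and WT_3. FT_2 and FT_3 were above all WT libraries, and FT_1 was level with them. With CTSK included, the sum was 1806, 5114 and 5153 in the FT libraries and 4180.4, 3676 and 4070.4 in the WT libraries.

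**Figure D2:**
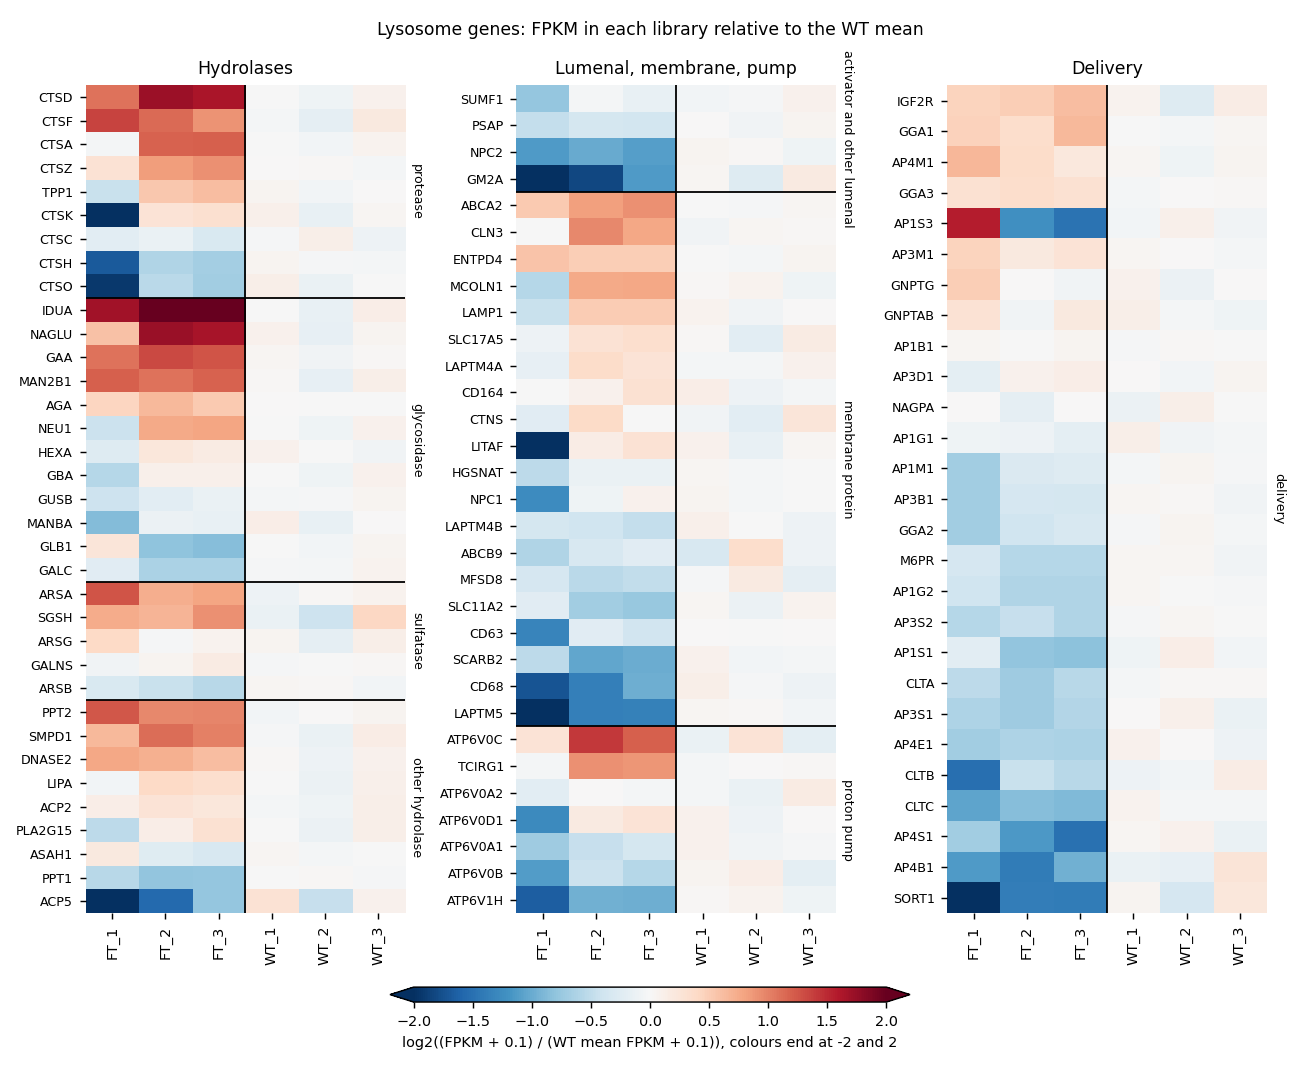
FPKM of 93 tested lysosome genes with a role in each of the 6 libraries, as the log2 ratio to the mean of the 3 WT libraries with 0.1 added to both (red above, blue below, colours ending at -2 and 2), in blocks by role and ordered within a role by the edgeR fold change. IDUA, CTSD, GAA and MAN2B1 are red in all 3 FT libraries, clathrin genes are blue in all 3, and CTSK and LITAF are dark blue in FT_1 alone.

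Activators and other lumenal proteins included no gene that was higher among the 5 tested in edgeR, also at an unadjusted p under 0.05, and 2 that were lower (NPC2 and GM2A); DESeq2 gave 0 higher and 3 lower, and edgeR without FT_1 gave 1 and 3. NPC2 (ENSBTAG00000021955, chromosome 10, 85774962 to 85783794) hands cholesterol from the lumen to the membrane protein NPC1, and its FPKM was 132, 144 and 135 in FT_1, FT_2 and FT_3 and 301, 293 and 274 in WT_1, WT_2 and WT_3. The FT libraries lay close together and well below the WT libraries. NPC2 had a log2 fold change of -0.92 (standard error 0.08, edgeR adjusted p = 0.00119), and -0.88 without FT_1. GM2A, the activator that presents GM2 ganglioside for degradation, stood at 1.47, 2.59 and 4.22 in the FT libraries and 9.70, 7.86 and 10.7 in the WT libraries. All FT values were below the WT values, and the log2 fold change was -1.60 with an edgeR adjusted p of 0.0247, which was 0.0746 without FT_2, 0.0798 without WT_1, 0.0619 without WT_2 and 0.0831 without WT_3. PSAP, the precursor of the saposins that assist sphingolipid hydrolases, was the most abundant of this role, at 536, 583 and 574 in the FT libraries and 752, 709 and 772 in the WT libraries. Its FT values were below the WT values, and the log2 fold change of -0.24 did not pass (edgeR adjusted p = 0.114) but did without FT_1 (-0.19, edgeR adjusted p = 0.0223). SUMF1, which activates sulfatases, had 29.0, 48.5 and 45.01 in the FT libraries and 47.9, 49.0 and 52.7 in the WT libraries. The groups overlapped, and the edgeR adjusted p was 0.658.

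Of 20 membrane proteins tested, 2 were higher in FT cells (ABCA2 and ENTPD4) and 2 were lower (CD68 and SCARB2), where 20.1% of all genes were higher and 18.9% lower, and without FT_1 the numbers were 9 and 6 (30.6% and 31.5% of all genes). ABCA2, a lipid transporter, had FPKM values of 7.78, 9.55 and 10.2 in FT_1, FT_2 and FT_3 and 5.36, 5.28 and 5.54 in WT_1, WT_2 and WT_3. FT values were above WT values throughout, the log2 fold change being 0.93 (standard error 0.13, edgeR adjusted p = 0.00308). ENTPD4, a nucleotide diphosphatase, stood at 14.6, 13.7 and 13.8 in the FT libraries and 9.67, 9.48 and 10.1 in the WT libraries, the log2 fold change being 0.68 (standard error 0.07, edgeR adjusted p = 0.00134). With a trend on gene length removed, the log2 fold change was 0.37 for ENTPD4 and 0.51 for ABCA2. SCARB2, also called LIMP-2, carries beta-glucocerebrosidase to the lysosome, and had 94.6, 65.9 and 67.9 in the FT libraries and 144, 129.9 and 132 in the WT libraries. Every FT value was below every WT value, and FT_1 was the highest of the FT libraries. For SCARB2 the log2 fold change was -0.68 with an edgeR adjusted p of 0.0167, and -0.85 without FT_1; the adjusted p was 0.0523 without FT_2, 0.0567 without FT_3, 0.0698 without WT_1, 0.0540 without WT_2 and 0.0547 without WT_3. CD68, a glycoprotein best known from macrophages, was low, at 0.77, 1.01 and 1.35 in the FT libraries and 3.02, 2.71 and 2.57 in the WT libraries, and lower in each FT library. CD68 had a log2 fold change of -1.24 with an edgeR adjusted p of 0.0185, which was 0.0595 without FT_2, 0.0768 without WT_1, 0.0638 without WT_2 and 0.0554 without WT_3.

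LAMP1, CD63 and NPC1 did not pass with 6 libraries. LAMP1 had an FPKM of 161, 312 and 312 in FT_1, FT_2 and FT_3 and 229, 208 and 219.9 in WT_1, WT_2 and WT_3. FT_2 and FT_3 were above and FT_1 below all WT libraries. For LAMP1 the log2 fold change was 0.42 (edgeR adjusted p = 0.264), and 0.68 without FT_1 (edgeR adjusted p = 1.13e-05). CD63, a tetraspanin of late endosomes and the most abundant of this role, stood at 433, 926 and 830.1 in FT_1, FT_2 and FT_3 and 1079, 1076 and 1079.6 in WT_1, WT_2 and WT_3. Its WT values were almost equal and all FT values were below them, with FT_1 the lowest, and the edgeR adjusted p was 0.311 (log2 fold change -0.40) and 0.111 without FT_1 (-0.13). NPC1, which exports cholesterol, had 7.96, 18.0 and 20.2 in the FT libraries and 19.9, 18.6 and 19.0 in the WT libraries and did not pass (edgeR adjusted p = 0.761).

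Other membrane proteins with FT_1 far from FT_2 and FT_3 were picked out after their values were seen. MCOLN1, a calcium channel of lysosomes, had an FPKM of 7.70, 19.6 and 19.7 in the FT libraries and 11.7, 12.1 and 10.8 in the WT libraries. LITAF, a protein of late endosomes, had 6.10, 27.5 and 30.4 in the FT libraries and 26.4, 22.4 and 25.5 in the WT libraries. LAPTM5, a transmembrane protein of blood cells, had 0.92, 6.2 and 6.26 in the FT libraries and 16.6, 16.4 and 15.4 in the WT libraries. In these 3 genes FT_1 was the lowest library, FT_2 and FT_3 were above the WT libraries for MCOLN1 and LITAF, and they were below them for LAPTM5. The log2 fold changes without FT_1 were 0.94, 0.40 and -1.20, with edgeR adjusted p values of 8.39e-06, 0.00299 and 2.98e-06, against 0.229, 0.955 and 0.0928 with 6 libraries. LAPTM5 also passed with 6 libraries in DESeq2 (adjusted p = 0.0150) and with limma on FPKM (0.0300). CLN3, at 7.76, 15.3 and 13.4 in the FT libraries and 7.46, 7.99 and 7.97 in the WT libraries, went from an edgeR adjusted p of 0.0524 to 9.12e-06 without FT_1 (log2 fold change 1.05), and DESeq2 gave 0.0129 with 6 libraries.

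**Figure D3:**
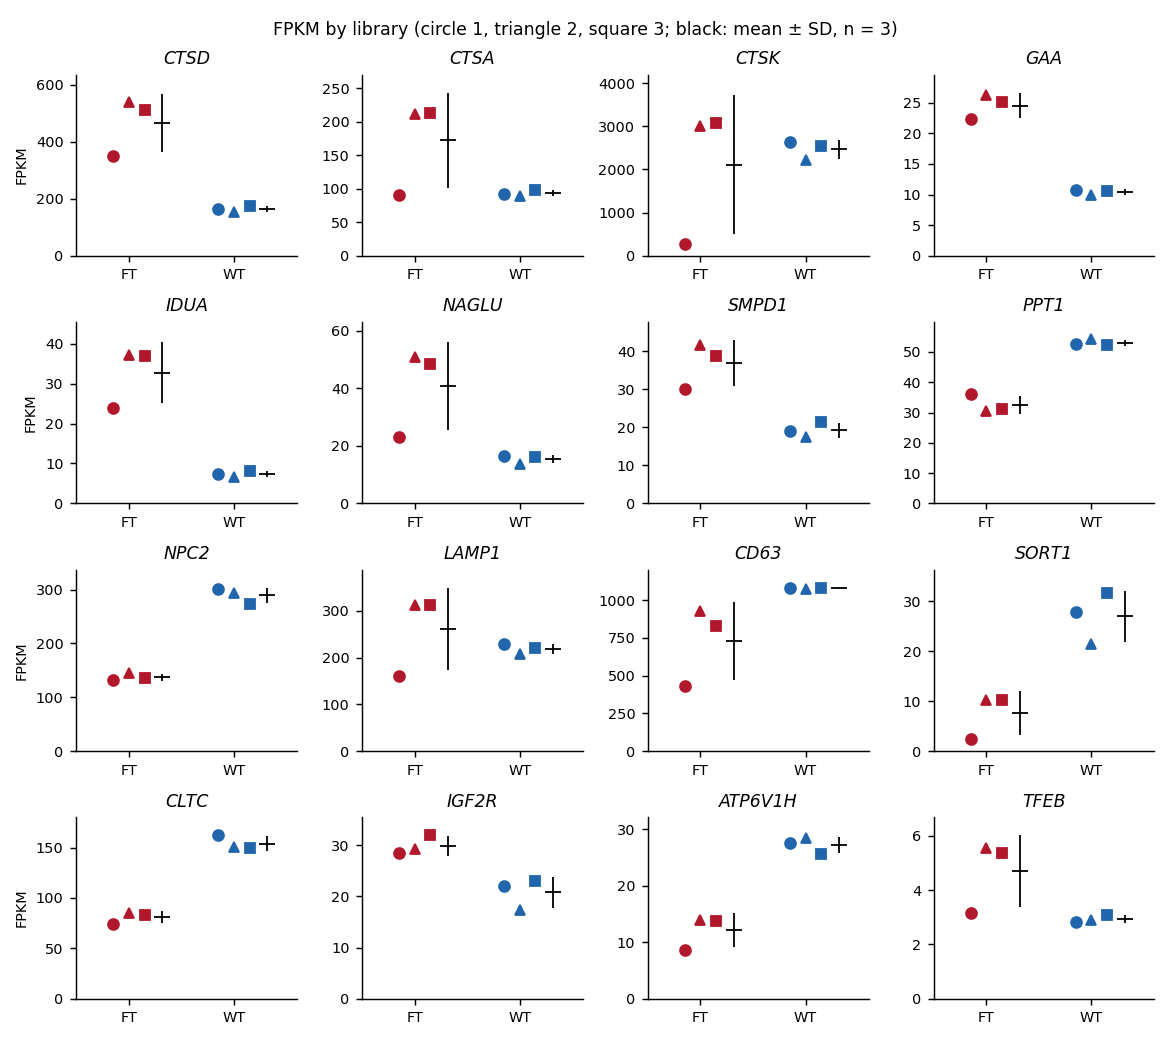
FPKM of 16 genes in each library, with FT in red and WT in blue, libraries 1, 2 and 3 as circle, triangle and square, and the mean ± SD of 3 libraries in black. CTSD, GAA, IDUA, NAGLU, SMPD1 and IGF2R are higher in all 3 FT libraries, PPT1, NPC2, CD63, SORT1, CLTC and ATP6V1H are lower in all 3, and FT_1 lies far below FT_2 and FT_3 in CTSK and CTSA.

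Of 7 proton pump subunits tested, 1 was lower in FT cells (ATP6V1H) and none was higher in edgeR. At the study's threshold 1, ATP6V0C, was higher in edgeR. DESeq2 called 2 higher (ATP6V0C and TCIRG1) and 3 lower. Without FT_1, edgeR called 3 higher (ATP6V0C, ATP6V0D1 and TCIRG1) and 3 lower. The row named ATP6V0C, which may not be the pump's c subunit (below), is in each of these higher counts. ATP6V1H (ENSBTAG00000003450, chromosome 14, 21853750 to 21901839), a regulatory subunit of the V1 sector, had FPKM values of 8.65, 13.9 and 13.8 in FT_1, FT_2 and FT_3 and 27.7, 28.5 and 25.6 in WT_1, WT_2 and WT_3. All FT values were below the WT values, with FT_1 the lowest. ATP6V1H had a log2 fold change of -1.01 (standard error 0.20, edgeR adjusted p = 0.0118), -0.80 without FT_1, and the adjusted p was 0.0509 without WT_2. ATP6V0D1, a V0 subunit and the most abundant of the pump genes, stood at 60.7, 166 and 178 in FT_1, FT_2 and FT_3 and 157, 136 and 148 in WT_1, WT_2 and WT_3. FT_1 was far below every other library, and FT_2 and FT_3 were above all WT libraries. For ATP6V0D1 the log2 fold change was 0.04 (edgeR adjusted p = 0.942) and 0.40 without FT_1 (edgeR adjusted p = 0.00122). TCIRG1, the a3 isoform of the V0 sector, had 9.58, 18.6 and 18.2 in the FT libraries and 9.57, 9.89 and 9.97 in the WT libraries, with FT_1 among the WT values. The edgeR adjusted p was 0.0531 (log2 fold change 0.82) and 1.13e-06 without FT_1 (1.078), and DESeq2 gave 0.0107 with 6 libraries. ATP6V0A1, the a1 isoform, had 8.14, 9.68 and 10.5 in the FT libraries and 14.2, 12.8 and 13.2 in the WT libraries and an edgeR adjusted p of 0.0691, or 0.0243 without FT_1 (log2 fold change -0.24).

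The median log2 fold change of the pump subunits was 0.04, and -0.12 without rescaling, so its sign depended on the scaling. With 1 library left out the median ranged from -0.22 without FT_3 to 0.15 without FT_1. Its sign also depended on the row named ATP6V0C, at 1.38. Apart from that row, the middle values were 0.04 (ATP6V0D1) and -0.34 (ATP6V0A1). The row named ATP6V0C (chromosome 8, 17434137 to 17435288 in the authors' table) held an FPKM of only 0.47, 1.15 and 0.98 in the FT libraries and 0.33, 0.47 and 0.31 in the WT libraries. RefSeq places the gene of that symbol on another chromosome, so these values may not be those of the pump's c subunit. The row is nevertheless counted in the numbers and the median of the pump given here. Of the 13 genes listed for the V1 sector and its partner ATP6AP2, which lie outside the 105, 11 were in the table and 10 were tested. None of them was higher in edgeR with 6 libraries, 1 was higher without FT_1, 4 were lower with 6 libraries (ATP6V1B2, ATP6V1E2, ATP6V1F and ATP6V1G2), and 5 were lower without FT_1, where 18.9% of all genes were lower with 6 libraries and 31.5% without FT_1. ATP6V1B2, a subunit of the V1 head, had 29.9, 44.4 and 43.4 in the FT libraries and 71.0, 65.0 and 64.8 in the WT libraries, with a log2 fold change of -0.61 and an edgeR adjusted p of 0.0361, or -0.44 and 3.31e-04 without FT_1. The edgeR adjusted p of ATP6V1B2 was 0.0506 without FT_2, 0.0542 without FT_3, 0.119 without WT_1, 0.0963 without WT_2 and 0.0918 without WT_3. The edgeR adjusted p of ATP6V1F was 0.0589 without FT_2, 0.0505 without FT_3, 0.0993 without WT_1, 0.1005 without WT_2 and 0.0830 without WT_3. The edgeR adjusted p of ATP6V1G2 was 0.0773 without FT_2, 0.0855 without FT_3, 0.101 without WT_1, 0.136 without WT_2 and 0.130 without WT_3. The edgeR adjusted p of ATP6V1E2 was 0.127 without FT_2, 0.164 without WT_1, 0.103 without WT_2 and 0.0971 without WT_3.

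Of 27 delivery genes tested, 5 were higher in FT cells (20.1% of all genes were) and 9 were lower (18.9% of all genes were). The median log2 fold change was -0.29, and without FT_1 the numbers were 7 and 15 (30.6% and 31.5% of all genes). The number lower was 5 without WT_1 (11.1% of all genes) and 5 with the replicate block (12.9%). It was 6 without FT_2, FT_3, WT_2 or WT_3 (14.2%, 14.4%, 11.3% and 12.6%) and 14 with limma on FPKM (29.2%). The summed FPKM of the delivery genes was 667, 664 and 686 in FT_1, FT_2 and FT_3 and 913, 905 and 904 in WT_1, WT_2 and WT_3. FT_1 did not stand apart here, and all FT sums were below all WT sums. Only 2 delivery genes had an FPKM in FT_1 under 2/3 of the mean of FT_2 and FT_3, against 16 of 38 hydrolases.

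Clathrin forms the coat of the transport vesicles. CLTC (ENSBTAG00000016708, chromosome 19, 10595786 to 10660521), its heavy chain, had FPKM values of 73.8, 85.3 and 83.2 in FT_1, FT_2 and FT_3 and 162, 150.2 and 149.7 in WT_1, WT_2 and WT_3. The FT libraries were all below the WT libraries, with FT_1 close to the other FT values. CLTC had a log2 fold change of -0.77 (standard error 0.10, edgeR adjusted p = 0.00302). CLTA, a light chain, was at 129, 113 and 126 in the FT libraries and 179.9, 188 and 188 in the WT libraries, the log2 fold change being -0.44 (standard error 0.08, edgeR adjusted p = 0.00926). The other light chain, CLTB, stood at 11.6, 24.2 and 22.5 in the FT libraries and 30.7, 31.7 and 36.6 in the WT libraries, with FT values below WT values, and had an edgeR adjusted p of 0.147, or 0.00862 without FT_1 (log2 fold change -0.33).

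The receptor gene IGF2R and the adaptor genes GGA1 and GGA3 were higher in FT cells, and M6PR was lower. IGF2R, the large mannose 6-phosphate receptor that also binds IGF2, had FPKM values of 28.4, 29.2 and 32.1 in FT_1, FT_2 and FT_3 and 21.97, 17.4 and 23.1 in WT_1, WT_2 and WT_3. M6PR, the smaller cation-dependent receptor, had 30.7, 26.2 and 26.2 in the FT libraries and 39.9, 40.0 and 37.0 in the WT libraries. The groups did not overlap in either gene, and the directions were opposite. The log2 fold change was 0.68 for IGF2R (standard error 0.13, edgeR adjusted p = 0.0104) and -0.34 for M6PR (standard error 0.09, edgeR adjusted p = 0.0257), where without FT_2, FT_3, WT_1, WT_2 or WT_3 the adjusted p of M6PR was 0.0841, 0.0829, 0.0978, 0.0885 and 0.0546. M6PR shared 821 bases with PHC1 on the other strand. Of the GGA adaptors, which collect these receptors into vesicles, GGA1 had 11.5, 10.7 and 13.1 in the FT libraries and 8.31, 8.14 and 8.53 in the WT libraries and GGA3 had 13.2, 13.7 and 13.2 in the FT libraries and 10.5, 10.7 and 10.9 in the WT libraries. Both were higher in every FT library, with log2 fold changes of 0.66 and 0.48 and edgeR adjusted p values of 0.00492 and 0.00354. With a trend on gene length removed, the log2 fold change was 0.22 for IGF2R, 0.22 for GGA3, 0.50 for GGA1 and -0.50 for M6PR. The third, GGA2, had 14.7, 18.1 and 19.1 in the FT libraries and 23.5, 24.7 and 23.3 in the WT libraries. Its FT values were all below the WT values, and the log2 fold change of -0.30 did not pass with 6 libraries (edgeR adjusted p = 0.0999) and did without FT_1 (-0.19, edgeR adjusted p = 0.0400). SORT1, the sorting receptor sortilin, was picked out after its values were seen, at 2.51, 10.2 and 10.1 in the FT libraries and 27.9, 21.4 and 31.6 in the WT libraries. FT values were far below WT values and FT_1 was the lowest, and the edgeR adjusted p was 0.0533 with 6 libraries (log2 fold change -1.65) and 4.64e-05 without FT_1 (-1.23). SORT1 also passed with 6 libraries without rescaling (edgeR adjusted p = 0.0379), in DESeq2 (0.00263) and with limma on FPKM (0.0223).

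Of the adaptor complexes, AP-3, which sorts membrane proteins to lysosomes, had 1 subunit higher (AP3M1) and 2 lower (AP3S1 and AP3S2) of 5 tested, and without FT_1 2 higher and 3 lower. AP3S1 had an FPKM of 45.1, 42.0 and 45.7 in FT_1, FT_2 and FT_3 and 69.5, 74.2 and 62.8 in WT_1, WT_2 and WT_3, all FT values being below the WT values, the log2 fold change being -0.48 (standard error 0.09, edgeR adjusted p = 0.00897). AP-4, which carries cargo from the Golgi, had all 4 subunits past the threshold, AP4M1 higher and AP4B1, AP4E1 and AP4S1 lower; these genes were picked out after their values were seen. AP4B1 had 2.54, 2.09 and 2.87 in the FT libraries and 5.15, 5.06 and 6.85 in the WT libraries, with a log2 fold change of -1.03 and an edgeR adjusted p of 0.00906. AP4M1 overlapped MCM7 and TAF6 and AP4B1 overlapped DCLRE1B on the other strand, where MCM7, TAF6 and DCLRE1B had log2 fold changes of -0.43, 0.52 and -1.32 themselves, so reads of these pairs cannot be told apart if strand was not counted. The calls of AP4M1, AP4E1 and AP4S1 were lost without WT_1 (edgeR adjusted p = 0.0585, 0.0594 and 0.101), that of AP4M1 also without WT_2 (0.0644) and with limma on FPKM (0.0585, 0.0572 with a pseudocount of 0.1 and 0.0920 without the filter), and that of AP4S1 also without FT_2, FT_3, WT_2 or WT_3 (0.0854, 0.0723, 0.1002 and 0.0722). AP-1, the adaptor of Golgi vesicles, had 1 subunit lower (AP1G2) of 6 tested, or 1 higher and 3 lower without FT_1, and the call of AP1G2 was lost without FT_2, FT_3, WT_1, WT_2 or WT_3 (edgeR adjusted p = 0.0561, 0.0557, 0.0693, 0.0537 and 0.0504). Its subunit gene AP1S3, at 10.6, 1.44 and 1.20 in the FT libraries and 3.38, 3.78 and 3.34 in the WT libraries, was highest in FT_1 and lowest in FT_2 and FT_3, so that its log2 fold change was 0.47 (edgeR adjusted p = 0.686) with 6 libraries and -1.24 (edgeR adjusted p = 6.96e-05) without FT_1.

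**Figure D4:**
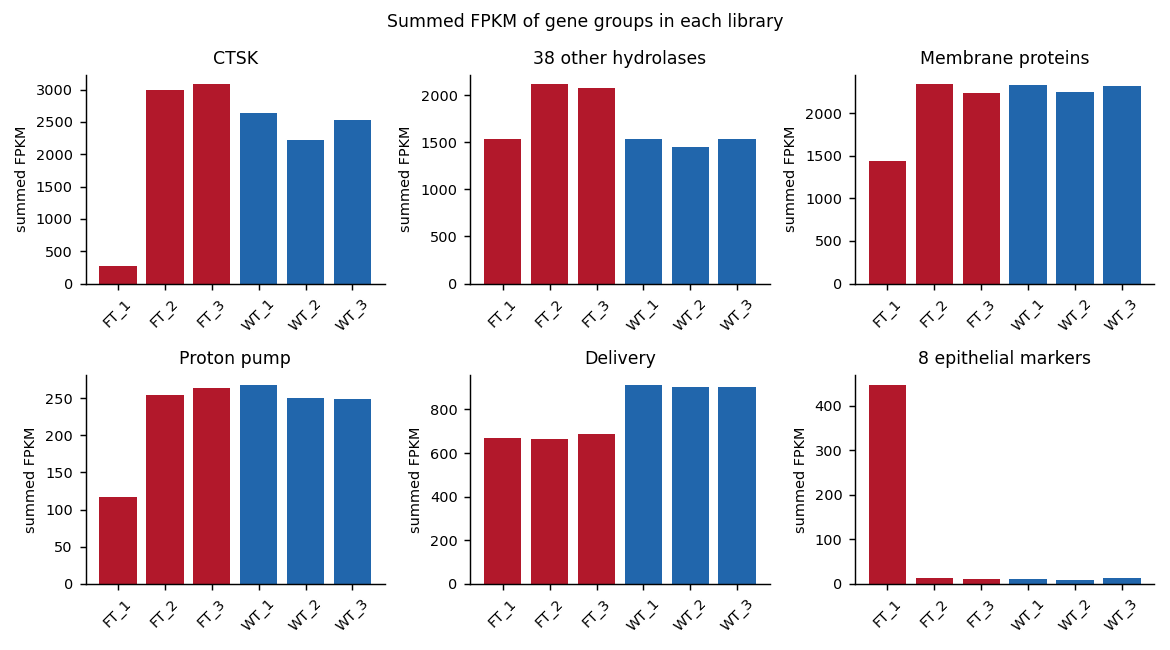
Summed FPKM in each of the 6 libraries (FT red, WT blue, 1 bar per library) for CTSK, the 38 other hydrolases, 22 membrane proteins, 9 proton pump subunits, 29 delivery proteins and 8 epithelial markers. FT_1 is the lowest library for CTSK, membrane proteins and the pump and the highest for epithelial markers, and the delivery bars of all FT libraries are below those of all WT libraries.

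With and without FT_1, most lysosome genes kept the direction of their fold change, and it turned in AP1S3, ASAH1, CTSK, GUSB, HGSNAT, LITAF, MANBA, NPC1 and SUMF1. Of the genes described above as not passing with 6 libraries in edgeR, ACP5, ATP6V0A1, ATP6V0C, CLN3, CTSA, CTSH, GALC, GGA2, LAPTM5, PSAP, SORT1 and TCIRG1 passed with 6 libraries in at least 1 other fit, as did the markers CD14, KRT5, KRT8, KRT14, KRT18 and VIM, and CST3 and CTSL of the lists below. With the replicate block the calls of AP1G2, AP4E1, AP4S1, CD68 and M6PR were lost (edgeR adjusted p = 0.0530, 0.0557, 0.0593, 0.0637 and 0.0655), as were those of ATP6V1B2, ATP6V1E2, ATP6V1F and ATP6V1G2 (0.0805, 0.121, 0.0707 and 0.0553) and of CSTB, LGMN and RRAGA (0.0540, 0.0550 and 0.0504). Without the count filter those of ATP6V1E2 and ATP6V1G2 were lost (0.0736 and 0.0652 in edgeR). Of the 21 genes that were higher with 6 libraries, all 21 were among the 45 higher without FT_1, and of the 16 lower genes all 16 were among the 32. Of the 21, 16 stayed past the threshold with any single library left out, as did 7 of the 16. Of the 14 higher hydrolases 10 did so (CTSD, CTSF, GAA, MAN2B1, IDUA, AGA, ARSA, PPT2, DNASE2 and SMPD1). How many calls over all genes were kept in these ways was not counted, so no share of all genes stands beside these numbers.

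**Figure D5:**
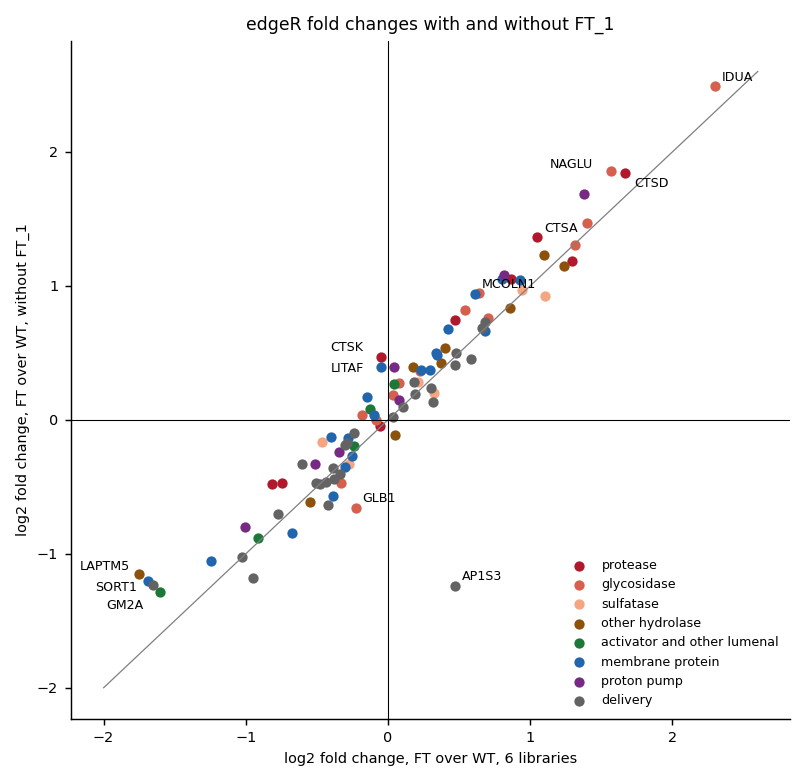
Log2 fold change of FT over WT from edgeR with 6 libraries (horizontal) and without FT_1 (vertical) for 97 tested lysosome genes with a role, coloured by role, with the line of equal values in grey. Most hydrolases lie above the line, CTSK and LITAF cross from just under 0 to above 0, and AP1S3 crosses from 0.47 to -1.24.

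Transcription of lysosomal genes is known to be driven by the MiT/TFE factors, of which 3 of 4 were in the table. TFEB had an FPKM of 3.16, 5.55 and 5.35 in FT_1, FT_2 and FT_3 and 2.81, 2.89 and 3.09 in WT_1, WT_2 and WT_3. All FT values were above the WT values, FT_1 by little. For TFEB the log2 fold change was 0.84 (standard error 0.25, edgeR adjusted p = 0.0396) and 1.06 (edgeR adjusted p = 2.62e-05) without FT_1, and the adjusted p was 0.115, 0.113, 0.130, 0.123 and 0.102 without FT_2, FT_3, WT_1, WT_2 and WT_3. The call of TFEB was also lost without rescaling (edgeR adjusted p = 0.0637), without the count filter (0.0507), with the replicate block (0.0708) and with limma on FPKM (0.0769). MITF had 4.44, 7.43 and 8.73 in the FT libraries and 7.58, 7.04 and 8.71 in the WT libraries and did not pass (edgeR adjusted p = 0.968), TFEC was at or under 0.06 in every library, and TFE3 had no row by that symbol.

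The Ragulator complex anchors the Rag GTPases and mTORC1 to the lysosomal surface. Of 15 genes of this list tested, 1 was higher in FT cells (RPTOR) and 4 were lower (LAMTOR2, LAMTOR4, LAMTOR5 and RRAGA), and without FT_1 the numbers were 5 and 7. Of all genes 20.1% were higher and 18.9% lower with 6 libraries, and 30.6% and 31.5% without FT_1. LAMTOR5 had an FPKM of 21.6, 28.5 and 23.7 in FT_1, FT_2 and FT_3 and 67.6, 67.8 and 51.2 in WT_1, WT_2 and WT_3, and LAMTOR2 had 15.1, 17.8 and 15.2 in the FT libraries and 31.3, 35.3 and 34.7 in the WT libraries. Neither overlapped between groups, and the log2 fold changes were -1.18 and -0.91 with edgeR adjusted p values of 0.00346 and 0.00200. LAMTOR4 lost its call without WT_1, WT_2 or WT_3 (edgeR adjusted p = 0.0658, 0.0716 and 0.0509), and RRAGA without FT_3, WT_1 or WT_2 (0.0580, 0.0660 and 0.0626). RPTOR lost its call with limma on FPKM without the filter (limma adjusted p = 0.0595). With a trend on gene length removed, the log2 fold change of RPTOR went from 0.60 to 0.28 and that of LAMTOR4 from -0.54 to -0.34.

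Cystatins inhibit cysteine cathepsins. Of 4 tested, 1 was lower and none was higher with 6 libraries in edgeR, and 2 were higher and 1 was lower without FT_1 (of all genes 20.1% were higher and 18.9% lower with 6 libraries, and 30.6% and 31.5% without FT_1). CSTB was lower in FT cells, at 59.5, 87.0 and 87.6 in FT_1, FT_2 and FT_3 and 145, 145 and 132 in WT_1, WT_2 and WT_3, the log2 fold change being -0.69 (standard error 0.17, edgeR adjusted p = 0.0236), and the adjusted p was 0.0823, 0.0828 and 0.0617 without WT_1, WT_2 and WT_3. CST3, the most abundant, stood at 332, 149 and 136 in the FT libraries and 128, 126 and 137 in the WT libraries, with FT_1 far above the rest, and did not pass with 6 libraries (log2 fold change 0.81, edgeR adjusted p = 0.110) but was higher without FT_1 (0.30, edgeR adjusted p = 0.00388). CST6 had 5.63, 31.0 and 23.4 in the FT libraries and 16.9, 15.4 and 14.7 in the WT libraries, with FT_1 the lowest and FT_2 and FT_3 the highest libraries. For CST6 the edgeR adjusted p was 0.509 (log2 fold change 0.52), or 1.58e-04 without FT_1 (0.96). CST7, at 0.15, 0.19 and 0.09 in the FT libraries and 0.30, 0.14 and 0.13 in the WT libraries, did not pass (edgeR adjusted p = 0.711).

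Of the 5 lysosomal genes left out for their antigen processing entry, 1 was lower in FT cells and none was higher with 6 libraries in edgeR, and without FT_1 3 were lower and 1 was higher, where of all genes 18.9% were lower and 20.1% higher with 6 libraries and 31.5% and 30.6% without FT_1. LGMN, an asparaginyl endopeptidase, had an FPKM of 64.3, 78.8 and 77.6 in the FT libraries and 118, 109 and 123 in the WT libraries, with a log2 fold change of -0.50 and an edgeR adjusted p of 0.0187, or 0.0729 without WT_1 and 0.0700 without WT_3. CTSB, an abundant cysteine cathepsin, stood at 168, 635 and 617 in the FT libraries and 547, 492 and 532 in the WT libraries, the arrangement of CTSK, with a log2 fold change of 0.02 (edgeR adjusted p = 0.975) and 0.43 (edgeR adjusted p = 3.02e-04) without FT_1. CTSL had 0.88, 3.34 and 3.79 in the FT libraries and 8.32, 7.53 and 8.96 in the WT libraries, CTSS had 19.4, 69.9 and 68.8 in the FT libraries and 81.6, 73.2 and 77.1 in the WT libraries, and CTSV had 93.1, 48.6 and 44.9 in the FT libraries and 69.5, 69.5 and 70.5 in the WT libraries. FT_1 was the lowest library for CTSL and CTSS and the highest for CTSV, and their edgeR adjusted p values were 0.0713, 0.546 and 0.972 with 6 libraries and 7.78e-05, 0.882 and 3.75e-04 without FT_1.

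The KEGG annotation also placed lysosome genes in other pathways, and their counts stand beside 20.1% of all genes higher and 18.9% lower with 6 libraries and 30.6% and 31.5% without FT_1. Of 12 in glycosaminoglycan degradation, 3 were higher in FT cells (IDUA, NAGLU and SGSH) and 1 was lower (ARSB), and without FT_1 6 were higher and 2 were lower. Of 9 in other glycan degradation 2 were higher (AGA and MAN2B1) and none was lower with 6 libraries in edgeR, and without FT_1 6 were higher and 1 was lower. Of 7 in sphingolipid metabolism 2 were higher (ARSA and SMPD1), and without FT_1 4 were higher and 2 were lower. Some entries held only lower calls with 6 libraries in edgeR. Among these calls were 3 of 10 tested in the synaptic vesicle cycle (ATP6V1H, CLTA and CLTC), 2 of 9 in the phagosome (ATP6V1H and M6PR) and 1 of 7 in oxidative phosphorylation (ATP6V1H). Without FT_1 the entries just named had 3 higher and 6 lower, 4 and 4, and 3 and 3. Each of those named includes the row named ATP6V0C. Apoptosis held only higher calls, 3 of 7 tested (CTSD, CTSF and CTSZ), and without FT_1 4 were higher and 1 was lower.

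The 7 lysosome genes not tested had counts too low for the filter. They were AP1M2, AP3M2, ATP6V0A4, ATP6V0D2, CTSW, LAMP3 and SLC11A1. Of the 105 genes, 29 overlapped another gene of the table, 6 of them a gene on the same strand, and how reads of overlapping genes were counted is not stated in the sources used here.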

How the data were processed

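RNA of bEFs was sequenced from 3 FT and 3 WT fetuses, grouped by the labels. The authors mapped the reads with HISAT to a UCSC genome and estimated expression with StringTie and edgeR, and the submitters' processing notes name Bowtie 0.12.2, HISAT2 2.0, StringTie 1.3.0 and the mouse build mm8. The cattle build is not given in the sources used here, so coordinates are those of the authors' table. The methods and the labels name different sequencers. The authors deposited raw counts per gene, not normalized. The authors also deposited FPKM values in the same table, scaled by gene length and library total.

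The counts were tested with edgeR 4.0.16 in R 4.3.3 (TMM scaling, filterByExpr, quasi-likelihood test, Benjamini-Hochberg over all genes tested). Standard errors are the absolute log2 fold change divided by the square root of F. Alternatives were median-ratio scaling, no rescaling, no filter, DESeq2 1.42.0, limma 3.58.1 on log2(FPKM + 1) where the mean reached 0.5, a pseudocount of 0.1, no FPKM filter, a replicate block, removal of a trend on gene length and leaving out each library. Symbols of 103 lysosome genes matched RefSeq (assembly ARS-UCD2.0), 1 of them on another chromosome.

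Named genes were, in each role, the 2 with the smallest p in each direction and the most abundant, with a set of well-known genes (CTSD, HEXA, GAA, GALC, LAMP1, CD63, CD68, NPC1, NPC2, PSAP, M6PR, IGF2R, TFEB, TFE3 and MITF) and every gene of a list of at most 5. Members and lists were chosen with earlier results of these data known. Other named genes were picked after their values were seen. Some genes are not reported here.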

Additional observations from a re-analysis of the deposited data

How the results depend on the processing

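Scaling, test and single libraries moved the counts of lysosome genes, and the sign of their median log2 fold change turned in several settings. The median, 0.04 with 6 libraries, was -0.12 without rescaling (all genes -0.12). It was -0.04 without FT_2 (all genes 0.03) and -0.02 without FT_3 (all genes 0.03). The number lower in FT cells was 16, and it was 26 without rescaling, 30 with limma on FPKM, 31 with a pseudocount of 0.1, 25 without the FPKM filter and 10 with the replicate block, and the shares of all genes lower in those fits were 25.2%, 29.2%, 28.8%, 20.5% and 12.9%. Past the study's threshold 11 were higher, against 6 with limma on FPKM, 7 with a pseudocount of 0.1 and 6 without the FPKM filter, and 6 were lower, against 10 with a pseudocount of 0.1. Of all genes 10.2% were higher and 8.96% lower past this threshold in edgeR, and 3.77% and 8.38% with limma on FPKM. These shares were not counted for the pseudocount of 0.1 or without the FPKM filter. The median log2 fold change of 0.04 became -0.14 with limma on FPKM and -0.16 with a pseudocount of 0.1, where the median of all genes went from 0.03 to -0.12 and -0.15, and it was 0.16 without FT_1 (all genes -0.02). With a trend on gene length removed it was -0.11 (all genes -0.09), and 26 of 88 named genes moved, among them ABCA2 (0.51), AP4M1 (0.31), ARSB (-0.54), CLTC (-1.13), GGA3 (0.22) and IGF2R (0.22). With 1 library left out, 16 to 45 were higher (11.0% to 30.6% of all genes) and 8 to 32 were lower (11.1% to 31.5% of all genes). The number lower past the study's threshold was then 3 to 8 (7.64% of all genes without WT_1 and 12.2% without FT_1). The replicate numbers showed no pairing of the libraries: deviations from the group means in same-numbered libraries had correlations of -0.001, -0.020 and 0.018. These values cannot exclude a pairing, because FT_1 dominates the deviations in the FT group. The replicate block kept 20 of the 21 higher calls and 10 of the 16 lower ones.

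Of the 89 named genes tested, 49 were called, 25 of them in every alternative with a test, and no called gene turned. The share of calls over all genes that were kept in this way was not counted. The value turned in 14 genes that were not called. Without rescaling, with limma on FPKM, with a pseudocount of 0.1 and without the FPKM filter, the log2 fold change was -0.10, -0.12, -0.12 and -0.12 for ASAH1, -0.12, -0.27, -0.27 and -0.27 for ATP6V0D1, and -0.14, -0.37, -0.37 and -0.37 for CTSB, and AP1S3 had -0.18, -0.37 and -0.18 in the last 3. With the replicate block it was -0.32 for AP1S3, -0.10 for ATP6V0D1 and -0.19 for CTSB. With 1 library left out it ranged from -1.24 to 0.91 for AP1S3, -0.11 to 0.14 for ASAH1, -0.22 to 0.40 for ATP6V0D1, -0.55 to 0.19 for CST7, -0.24 to 0.43 for CTSB, -0.43 to 0.47 for CTSK, -0.64 to 0.0130 for CTSS, -0.41 to 0.16 for CTSV, -0.16 to 3.57e-05 for GUSB, -0.40 to 0.40 for LITAF, -0.24 to 0.23 for MITF, -0.41 to 0.17 for NPC1 and -0.27 to 0.0776 for SUMF1. In the first 4 of these alternatives the log2 fold change of ATP6V0A2 was -0.0762, -0.0720, -0.0807 and -0.0720. The cause was not tested.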
